A study of Homo sapiens with 4 samples.

Results

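RNA polymerase II (RNAPII) occupancy in HCT116 cells was described from every peak that the authors called in the RNAPII chromatin immunoprecipitation library against input DNA. The full RNAPII list holds 61456 of the 97318 peaks in the full lists of 3 antibodies, the others being 17975 for H3K4me3 (histone H3 trimethylated at lysine 4, which marks promoters) and 17887 for TAF3 (a TFIID subunit). HCT116 is an established human colorectal carcinoma line, and the series has 4 libraries from it, with no replicate: RNAPII, H3K4me3, TAF3 and an input made without antibody. Cells of passages 15 to 18 grew as a monolayer in DMEM with no further treatment given in the labels. They were crosslinked in 1% formaldehyde for 10 min. The labels name the RNAPII antibody N-20, which as background is raised against the amino-terminal part of the largest subunit, so it is not directed at a phosphorylated form. After duplicate removal the RNAPII library had 16841238 tags and the input 19185386, and 9790988 RNAPII tags (58.1%) lay in peaks. With 1 library per antibody no difference between conditions could be tested, and the intervals below are 95% Wilson or Newcombe intervals that cover the counting of peaks only.

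RNAPII transcribes all nuclear protein-coding genes, most long noncoding RNAs and microRNA hosts, and most spliceosomal small nuclear RNAs. It assembles with TFIID and the other general factors at the promoter, often pauses shortly after initiation, then elongates through the gene body and slows again past the polyadenylation site before release. A ChIP profile of total RNAPII is therefore usually a focal peak at the start site, a lower level along the transcribed gene and, on some genes, a rise at the end.

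Several of the widest domains and longest chains of peaks lay over microRNA hosts. Their mature sequences, from RefSeq (GRCh38.p14), are printed because the microRNA is the known product of those transcripts. All 8 looked up were found, and the capitals mark the seed, bases 2 to 8. The regions are MIR31HG on chromosome 9, the MIR29A and MIR29B1 cluster on chromosome 7, the MIR221 and MIR222 cluster on chromosome X and MIR100HG on chromosome 11, which hosts miR-100, let-7a and miR-125b. The listing shows that miR-29a and miR-29b share a seed and that miR-221 and miR-222 share another.
miR-31-5p: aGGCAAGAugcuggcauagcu
miR-29a-3p: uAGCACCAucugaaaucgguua
miR-29b-3p: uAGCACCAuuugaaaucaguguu
miR-221-3p: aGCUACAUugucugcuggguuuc
miR-222-3p: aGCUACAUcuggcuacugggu
miR-100-5p: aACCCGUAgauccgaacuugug
let-7a-5p: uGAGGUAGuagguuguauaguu
miR-125b-5p: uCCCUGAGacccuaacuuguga

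Promoter sequences are given for 4 genes named as examples below, chosen after the values were seen. CDKN1A and RPL38 stood under domains over 10 kb whose summit lay at the gene's 5′ end, and KITLG and HNRNPC under chains of peaks whose strongest peak lay there. Each run is the 250 bases before the RefSeq start site, 5′ to 3′ on the gene's strand, in GRCh38.p14, at chr6:36678464-36678713 (+), chr17:74203428-74203677 (+), chr12:88580472-88580721 (-) and chr14:21269443-21269692 (-), respectively. Capitals mark the motifs TATAAA (the core of the TATA box) and GGGCGG (the core of the GC box), searched on both strands with overlapping matches counted, the other strand reading TTTATA and CCGCCC.
CDKN1A: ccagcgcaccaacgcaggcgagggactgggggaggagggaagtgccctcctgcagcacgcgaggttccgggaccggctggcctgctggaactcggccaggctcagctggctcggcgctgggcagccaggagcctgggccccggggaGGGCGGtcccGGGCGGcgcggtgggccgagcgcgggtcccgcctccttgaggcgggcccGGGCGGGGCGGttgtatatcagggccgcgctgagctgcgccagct
RPL38: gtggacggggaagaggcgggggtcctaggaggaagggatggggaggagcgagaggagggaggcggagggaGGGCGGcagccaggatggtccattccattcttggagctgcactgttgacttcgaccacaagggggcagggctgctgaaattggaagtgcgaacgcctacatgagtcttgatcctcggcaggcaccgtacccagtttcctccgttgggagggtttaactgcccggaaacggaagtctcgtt
KITLG: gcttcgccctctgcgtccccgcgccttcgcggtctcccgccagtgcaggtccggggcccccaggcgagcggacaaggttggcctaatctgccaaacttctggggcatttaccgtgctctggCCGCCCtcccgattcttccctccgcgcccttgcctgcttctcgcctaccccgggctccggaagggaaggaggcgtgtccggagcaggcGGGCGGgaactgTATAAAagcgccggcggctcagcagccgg
HNRNPC: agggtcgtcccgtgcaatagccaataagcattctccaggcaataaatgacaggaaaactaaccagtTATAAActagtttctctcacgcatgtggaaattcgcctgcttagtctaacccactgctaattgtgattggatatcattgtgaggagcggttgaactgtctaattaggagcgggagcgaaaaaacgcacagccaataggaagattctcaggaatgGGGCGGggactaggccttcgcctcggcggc

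GGGCGG occurred 4 times upstream of CDKN1A, 2 times upstream of KITLG and 1 time each upstream of RPL38 and HNRNPC, and 42.5% of 34943 RefSeq upstream windows of the same length held it. TATAAA began at base -29 from the start site of KITLG and at base -184 from that of HNRNPC, and 10.8% of the windows held it. Neither CDKN1A nor RPL38 had that string in its window. These matches are descriptions of the sequence and were not compared with occupancy.

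RNAPII peaks ranged in width from 134 to 43722 bp, a spread that neither other antibody showed. The median was 836 bp, the quartiles were 540 and 1487 bp, the lowest 10% were at most 403 bp and the widest 1% were over 7881 bp. Domains over 10 kb numbered 316 (0.514%, 0.461 to 0.574%), compared with 2 H3K4me3 peaks, the wider of them 12312 bp, and 0 TAF3 peaks, the widest of which was 8492 bp. Most peaks were narrow: 12589 (20.5%) were at most 500 bp and 23404 (38.1%) were 500 to 1000 bp. A further 16170 (26.3%) were 1 to 2 kb, 7673 (12.5%) were 2 to 5 kb and 1304 (2.12%) were 5 to 10 kb.

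The few wide domains carried more of the signal than their share of the covered bases. The 316 domains over 10 kb made up 5.47% of the covered 79.7 Mb and 8.69% of the tags in peaks, and the widest 614 peaks held 13.5% of those tags. At the other end, peaks of at most 500 bp made up 6.34% of the covered bases and 2.11% of the tags. Peaks of 1 to 5 kb held the bulk, with 31.7% of the tags in those of 1 to 2 kb and 32.7% in those of 2 to 5 kb.

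**Figure D1:**
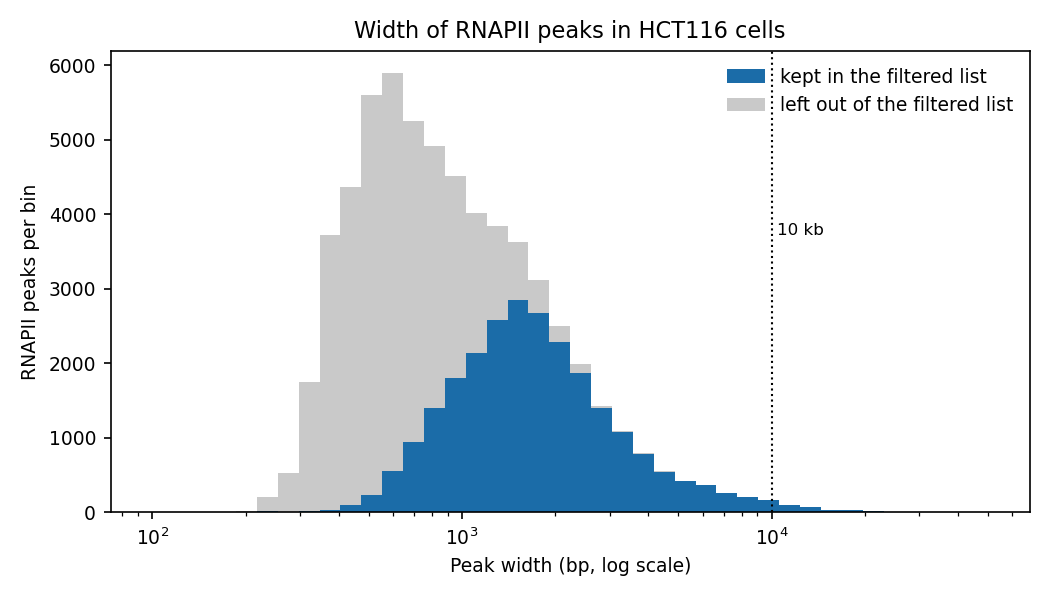
Histogram of RNAPII peak width (x axis, bp, log scale; y axis, peaks per bin), with peaks kept in the authors' filtered list in blue stacked under those left out in grey. The dotted line marks 10 kb, to the right of which lie 316 peaks, all of them kept. The left-out peaks have a median width of 591 bp and the kept ones of 1623 bp.

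The authors' filtered list kept 25013 peaks, 40.7% of the full list, and width went with being kept. The share kept was 1.83% for peaks of at most 500 bp, 19.3% at 500 to 1000 bp, 69.9% at 1 to 2 kb, 95.6% at 2 to 5 kb, 99.6% at 5 to 10 kb and 100% over 10 kb. The kept peaks held 51.6% of all RNAPII tags, with a median of 223 tags and a 44.8-fold enrichment. The 36443 left out held 6.51%, with a median of 25 tags and a 9.35-fold enrichment. Fold enrichment, false discovery rate and score are the authors' own values, the fold being the tags at the summit over the local background that MACS expected.

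Nearly all exclusions came from the false discovery rate, which MACS estimates by swapping antibody and input. Of the left-out peaks, 35116 (96.4%) had a fold above 5 and failed the rate of 5% alone, 4 failed the fold alone and 1323 failed both. At that border the 1307 peaks with a rate of 4.5 to 5% had medians of 13.7-fold, 58 tags and 1061 bp. The 1233 peaks with a rate from 5 to 5.5% had 13.1-fold, 53 tags and 1008 bp, so the peaks on either side of the threshold had similar values.

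A few strong peaks were among those left out. RAB7A, a small GTPase of late endosomes, had a peak of 171-fold (chr3:128444667-128445914, 291 tags) with a false discovery rate of 18.2%. NXN, an oxidoreductase of the thioredoxin family, had one of 169-fold (chr17:882419-883822, rate 18.2%), SLC1A3, a glutamate transporter, one of 163-fold (chr5:36606292-36607791, rate 18.2%), and DFFA, the inhibitor of the caspase-activated DNase, one of 151-fold (chr1:10531669-10533098, rate 7.69%). The fifth, of 147-fold, lay at chr6:74098090-74099375 with a rate of 20%. All 5 overlapped an H3K4me3 peak and a TAF3 peak.

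Gene names here and below are background knowledge of the hg19 map, since no hg19 annotation was used. The RefSeq chromosome of each of the 37 symbols considered equalled that of its region.

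Tag density rose with width across the list. The median was 36.7 tags per kb in peaks of at most 500 bp, 43.8 at 500 to 1000 bp, 75.3 at 1 to 2 kb, 122 at 2 to 5 kb, 133 at 5 to 10 kb and 174 over 10 kb (quartiles 124 and 237). Input averaged 7.11 tags per kb over the effective genome, and RNAPII tags outside peaks averaged 2.69 per kb. Domains over 10 kb were 2.31 times as dense as peaks of 1 to 2 kb, but 1.17 times as dense among kept peaks alone. Across the 61456 peaks the rank correlation of width with tag density was 0.67 and that of width with fold was 0.44. All values come from the same library, and at most 1 tag per position was counted.

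Between 1 to 2 kb and over 10 kb, median density rose among peaks without H3K4me3 but not among peaks with it. H3K4me3 overlapped 29.4% of RNAPII peaks, 46.7% of those of 1 to 2 kb and 65.8% of those over 10 kb, so the marked share rose as well. Among peaks without it, the median density was 36.3 tags per kb up to 500 bp, 42.0 at 500 to 1000 bp, 49.8 at 1 to 2 kb, 66.0 at 2 to 5 kb, 93.9 at 5 to 10 kb and 111 over 10 kb. Among peaks with it, the median was 41.3 and 85.9 tags per kb in the 2 narrowest classes, reached 216 at 1 to 2 kb and was 209, 176 and 203 in the 3 wider classes. Over 10 kb, the 208 domains with H3K4me3 had a median of 122-fold and the 108 without it 25.9-fold.

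**Figure D2:**
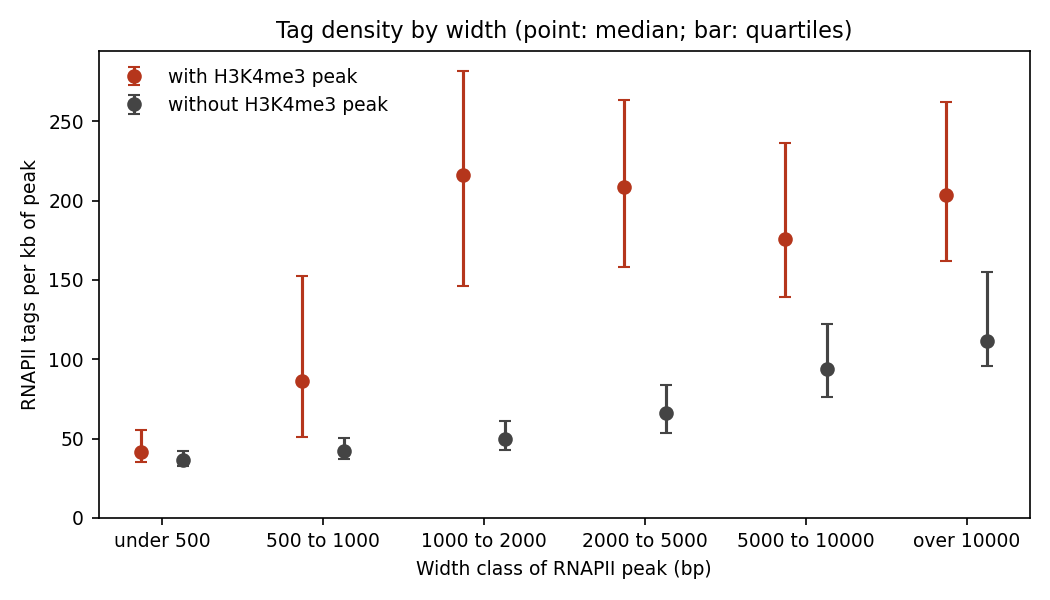
RNAPII tags per kb of peak (y axis) by width class (x axis, bp), for peaks that overlap an H3K4me3 peak (red) and peaks that do not (grey). Points are medians and bars run from the lower to the upper quartile over peaks. Marked peaks are at 216 at 1000 to 2000 bp and at 203 over 10000 bp, while unmarked peaks climb from 49.8 to 111.

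Of the 5 densest peaks, 2 lay at small nuclear RNA genes, 1 at an immediate early gene and 2 at places on chromosome 17 that are not named here. The highest density of the list was 901 tags per kb (chr17:56735770-56737136, 1232 tags, 134-fold). The peak at RNU5E-1, a U5 spliceosomal RNA gene, reached 874 (chr1:11967665-11970388, 161-fold), and that at RNU5F-1, another U5 gene, 818 (chr1:45186548-45188214, 192-fold). IER3, an immediate early gene that is quickly induced by stress and growth factors, had 844 over 6314 bp (chr6:30707434-30713747, 208-fold). The fifth was 804 (chr17:56756188-56757522, 117-fold). U5 genes have near-identical copies, and how reads that map to several places were treated is not given in the sources used here, so the densities at these genes are uncertain. H3K4me3 differed among them: IER3 carried a peak of 128-fold and RNU5E-1 one of 16.5-fold, while RNU5F-1 and both chromosome 17 peaks had none. Each of the 5 overlapped a TAF3 peak, of 86.6-fold at IER3 and between 5.97-fold and 18.2-fold at the others.

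Enrichment at the summit named other genes, listed here after their values were seen. GADD45B, a stress sensor of the GADD45 family, had the highest fold of the list, 313-fold in 3048 bp. It was followed by TSC22D1, a TGF-beta-induced leucine zipper protein, at 306-fold, and CCND1, which encodes cyclin D1, at 302-fold in a domain of 22774 bp. The linker histone gene H1-2 reached 301-fold and the nuclear long noncoding RNA MALAT1 299-fold in 12741 bp. All 5 overlapped H3K4me3 and TAF3 peaks.

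High enrichment also occurred in peaks under 500 bp. RND3 had 299 tags in 485 bp and 270-fold enrichment (chr2:151343963-151344447), with H3K4me3 at 182-fold and TAF3 at 81.2-fold. The next 4 narrow peaks were between 109-fold and 122-fold. Of these, the peak at chr19:18633364-18633815 overlapped H3K4me3 (282-fold) and TAF3 (93.1-fold), the peak at chr10:15210916-15211404 only TAF3 (21.9-fold), and those at chr1:149514030-149514362 and chr17:19015182-19015500 neither.

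The widest domain of all lay over EZR, which encodes ezrin, a linker between actin and the plasma membrane. It spanned 43722 bp (chr6:159180836-159224557) with 9470 tags, 217 per kb and 69.9-fold enrichment, and overlapped no H3K4me3 and no TAF3 peak. Its summit lay 11.0% of the width from the low-coordinate end, and EZR is transcribed from high to low coordinates, so the summit was on the 3′ side. Whether the domain reached the EZR start site was not determined, so the values do not show that the promoter lacked these partners. MIR31HG, the host of miR-31, came next with 34914 bp (chr9:21499625-21534538), 11543 tags, 331 per kb and 251-fold, the most tags of any RNAPII peak. It overlapped no H3K4me3 peak and 1 TAF3 peak of 8.96-fold.

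SLC7A5, a subunit of an amino acid transporter, had a domain of 33408 bp (chr16:87860180-87893587, 5307 tags, 42.5-fold) in which both partners were weak, at 4.71-fold for H3K4me3 and 5.03-fold for TAF3. Whether that domain reached the SLC7A5 start site was not determined either. ERRFI1, a feedback inhibitor of the EGF receptor, differed in shape. Its domain of 27767 bp (chr1:8061014-8088780, 8917 tags, 223-fold) had its summit 91.2% of the way from the low-coordinate end of a gene on the minus strand, which is its 5′ side, with H3K4me3 at 145-fold. It stood alone, with no other RNAPII peak within 3 kb, and was the widest peak to do so.

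The remaining widest domains were more mixed. MIR100HG had 27018 bp (chr11:122005357-122032374, 175-fold), with the summit 83.8% along, and TRIOBP, an actin-bundling protein gene, 25080 bp (chr22:38130812-38155891, 83.4-fold), with the summit 64.5% along. SREBF1, a master regulator of lipid synthesis, had 23923 bp (chr17:17708325-17732247, 73.2-fold) with the summit 23.4% along, which is the 3′ side of that gene. The domain at BCAN (chr1:156607008-156632322, 25315 bp, 105-fold) had its summit 95.5% along, the 3′ side of BCAN, and at that side an H3K4me3 peak of 97.9-fold. Domains at chr9:139728913-139758439 (29527 bp, 197-fold) and chr8:145731064-145755801 (24738 bp, 10578 tags, 428 per kb) overlapped 3 and 5 H3K4me3 peaks.

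Position of the summit within the peak changed with width. In peaks of 1 to 2 kb, 9.83% of summits lay in the outer 20% at either end, compared with 17.2% at 2 to 5 kb, 32.4% at 5 to 10 kb and 40.8% (35.5 to 46.3%) over 10 kb. Even placement along the peak would give 40%. The difference between the widest class and peaks of 1 to 2 kb was 31.0 percentage points (25.7 to 36.5). No summit lay within 67 bp of an end, so narrow peaks could hardly have one there, and in the narrowest class 1 of 12589 did. The low-coordinate side of the midpoint held 49.9% to 51.9% of summits in the 6 classes. The counting interval lay just above 50% in 3 of them, at most 500 bp (51.1%, 50.2 to 51.9%), 1 to 2 kb (51.3%, 50.5 to 52.1%) and 2 to 5 kb (51.3%, 50.2 to 52.5%).

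Asymmetry of the widest domains went with H3K4me3. Over 10 kb, 52.9% of the 208 domains with H3K4me3 had the summit in the outer 20% at an end, compared with 17.6% of the 108 without it. At 5 to 10 kb the shares were 41.1% and 23.2%. In peaks of 1 to 2 kb the order was the opposite, 3.55% with the mark and 15.3% without. The excess in the marked domains lay 10 to 20% of the width from an end, in which 37 summits lay on the low-coordinate and 32 on the high-coordinate side. The outermost 10% held 22 and 19 of the 208, near the 10% each that even placement gives. Domains without the mark had fewer summits in the outer 20% than even placement gives.

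**Figure D3:**
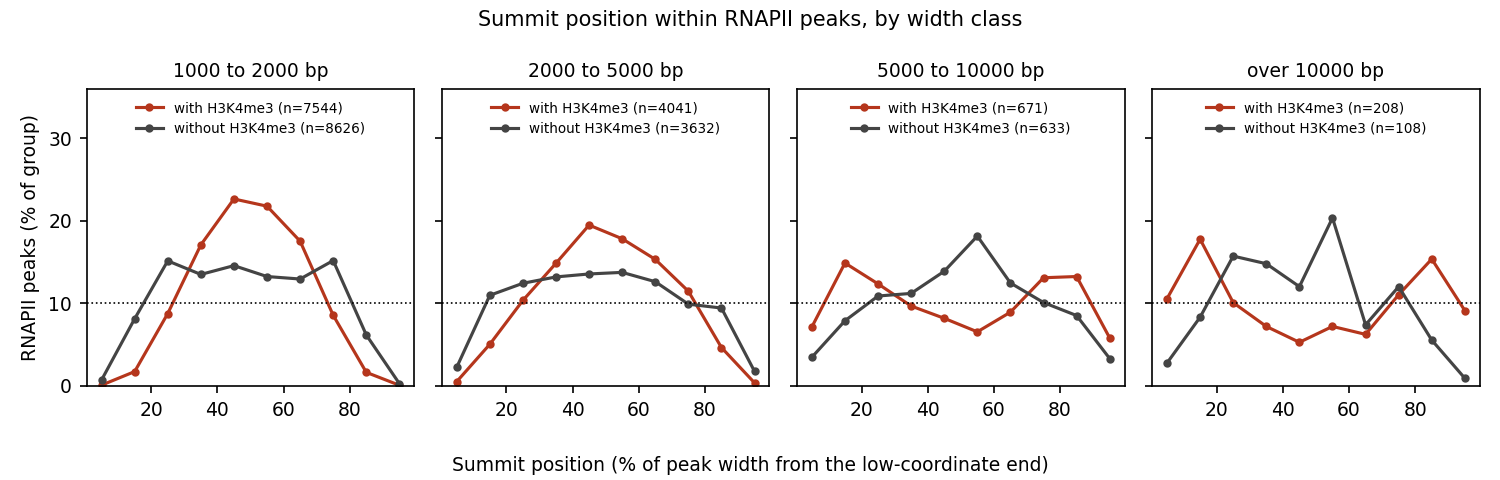
Share of RNAPII peaks (y axis, percent of the group) by summit position (x axis, percent of width from the low-coordinate end, in steps of 10), in 4 width classes, with H3K4me3 (red) and without (grey). The dotted line is even placement. Red curves have 1 hump at 1000 to 2000 bp and a hump on each side over 10000 bp, highest between 10 and 20% of the width from either end (17.8% and 15.4%) and close to even placement in the outermost 10% (10.6% and 9.13%).

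Within the marked domains the RNAPII summit lay at the mark. Of the 208, the H3K4me3 peaks of 115 were confined to one side of the midpoint, and in 106 of these (92.2%, 85.8 to 95.8%) the RNAPII summit was on that side, compared with 9 on the other. In the other 93 the mark reached both sides. The summit fell inside an H3K4me3 peak in 192 of 208 domains (92.3%, 87.9 to 95.2%), although the mark covered a median of 34.0% of the domain. Its median distance to the nearest H3K4me3 summit was 433 bp (quartiles 246 and 770).

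TAF3 was closer still. It overlapped 205 of the 316 domains, shared the summit's side of the midpoint in 107 of the 111 where it was on one side (96.4%), and held the RNAPII summit in 200 of 205 (97.6%). The RNAPII summit lay a median of 35 bp from the nearest TAF3 summit (quartiles 14 and 139).

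CDKN1A, which encodes the cell cycle inhibitor p21, had its summit close to one end. Its domain of 10758 bp (chr6:36646076-36656833, 2233 tags, 221-fold) had the summit 4.28% of the way along from the 5′ side. RPL38, a ribosomal protein gene, had a domain of 10701 bp (chr17:72199443-72210143, 118-fold) with the summit at 3.85%. DUSP28, a dual-specificity phosphatase gene, had the most one-sided summit, at 1.73% of 21680 bp (chr2:241499421-241521100, 128-fold). In DUS1L, a tRNA dihydrouridine synthase gene on the minus strand, the summit was 96.1% along 16123 bp (chr17:80008130-80024252, 119-fold), again its 5′ side. All 4 carried H3K4me3, the highest in each between 121-fold and 159-fold. The CDKN1A domain overlapped 1 H3K4me3 peak, those at RPL38 and DUS1L 2 each and that at DUSP28 3. Whether these domains also hold other genes was not determined. The exception among the 5 was chr7:130608457-130623821, with the summit at 3.26%, 25.3-fold enrichment, and no H3K4me3 or TAF3.

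The 5 domains with the most central summits had them between 49.9% and 50.3% of the width. They lay at chr11:117062133-117075488, chr6:43583953-43594460, chr3:47886955-47897234, chr22:46746254-46756543 and chr12:53450064-53460378. None overlapped H3K4me3 or TAF3, and their enrichment ran from 14.5-fold to 43.3-fold with 74.3 to 158 tags per kb.

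Domains over 10 kb without H3K4me3 were set beside the nearest mark outside them. The nearest H3K4me3 peak was a median of 6524.5 bp away (quartiles 2580 and 18698), a distance not computed for other RNAPII peaks. In 63 of the 108 the summit was on the side away from that mark (58.3%, 48.9 to 67.2%), an interval that includes 50%. This comparison was added after the data were seen. After EZR and MIR31HG, the widest of them were a domain of 20656 bp over MIR29A (chr7:130556133-130576788, 49.7-fold), one of 20606 bp within TCF7L2 (chr10:114762724-114783329, 11.3-fold) and one of 20296 bp at chr8:144982449-145002744 (23.1-fold). All 3 lacked TAF3 as well.

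Wide domains overlapped H3K4me3 more often than peaks of 1 to 2 kb in the full list, but not detectably in the filtered list. H3K4me3 overlapped 10.8% of peaks up to 500 bp, 18.2% at 500 to 1000 bp, 46.7% at 1 to 2 kb, 52.7% at 2 to 5 kb, 51.5% at 5 to 10 kb and 65.8% (60.4 to 70.8%) over 10 kb. TAF3 overlapped 27.2% of all RNAPII peaks, 47.3% of those of 1 to 2 kb and 64.9% of those over 10 kb. The widest class exceeded peaks of 1 to 2 kb by 19.2 percentage points for H3K4me3 (13.7 to 24.2) and 17.6 for TAF3 (12.2 to 22.7). Among kept RNAPII peaks the differences were 0.789 points (-4.67 to 5.88) and -1.94 points (-7.42 to 3.19). A wider peak also has more bases in which to meet a partner, an effect that was not tested. In the full list, the RNAPII summit itself lay inside an H3K4me3 peak in 45.3% at 1 to 2 kb and 60.8% over 10 kb. The difference was 15.5 points (9.95 to 20.8), and it was not computed among kept peaks.

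RNAPII peaks came in runs. The median gap to the next RNAPII peak was 2464 bp, compared with 48495 bp between H3K4me3 peaks and 45356 bp between TAF3 peaks, and 52.4% of RNAPII gaps were within 3 kb, compared with 10.1% and 12.7%. Peaks were joined into a chain where successive gaps were at most 3 kb. This gave 29260 intervals, of which 18819 were peaks standing alone and 4665 were pairs. There were 5776 chains of 3 or more peaks, with 33307 peaks (54.2%, 53.8 to 54.6%) and 53.6% of the tags in peaks. Their median span was 8238.5 bp, of which a median of 70.1% was inside peaks. Of all intervals, 823 spanned over 20 kb, 77 over 50 kb and 7 over 100 kb.

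Long chains were strong and usually marked. Chains of 3 to 4 peaks numbered 3104, of 5 to 9 peaks 1976, of 10 to 19 peaks 605 and of 20 or more 91. H3K4me3 overlapped 46.9% of chains of 3 to 4 peaks, 53.2% of 5 to 9, 68.6% of 10 to 19 and 82.4% (73.3 to 88.9%) of 20 or more. The median of the strongest peak in a chain was 25.3-fold, 50.1-fold, 96.5-fold and 122-fold in these 4 classes. A longer chain has more places to meet a mark and more peaks from which the strongest is taken. Of peaks standing alone 48.3% overlapped H3K4me3, and of pairs 49.0%, so chains of 3 to 4 peaks were not marked more often than these.

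In chains with H3K4me3 at one end only, the marked end was the strong end. Of 5776 chains, 1973 (34.2%, 32.9 to 35.4%) had the mark at the peak of one end and not the other, 978 at the low-coordinate end and 995 at the high-coordinate end. A further 412 (7.13%) had it at both ends, 612 (10.6%) only at inner peaks and 2779 (48.1%) nowhere. Read from the marked end, the median enrichment was 94.5-fold at that end, 10.9-fold at the next peak, 10.7-fold at the peaks further in and 9.35-fold at the opposite end. The median density in the same order was 194, 47.3, 46.6 and 42.0 tags per kb, and the filtered list kept 90.6%, 38.6%, 37.0% and 21.1%.

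Among called peaks the fall was thus a step at the marked peak, with similar medians further along. Those medians lay near the 9.35-fold and 40.3 tags per kb of all left-out peaks. Weaker stretches are gaps without a call and do not enter, so a level occupancy along the chain cannot be read from them. The marked peak was the strongest of its chain by fold in 1515 chains (76.8%, 74.9 to 78.6%), an inner peak in 445 (22.6%) and the opposite end in 13 (0.659%). By tags, which also count width, the numbers were 1347 (68.3%), 572 (29.0%) and 54 (2.74%). Peaks with H3K4me3 were denser than peaks without it in every width class of the whole list, so this order is not particular to chains. An end peak also borders on at least 3 kb with no call.

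Peaks left out of the filtered list often belonged to runs, as did most RNAPII peaks, with pairs counted as chains here. Of the 36443, 19337 (53.1%) were in a chain that held a kept peak, 7897 (21.7%) in chains of left-out peaks only and 9209 (25.3%) stood alone. Among the kept peaks 9610 (38.4%) stood alone, and among all RNAPII peaks 18819 (30.6%). H3K4me3 overlapped 8.29% of left-out and 60.3% of kept peaks, and TAF3 3.59% and 61.7%.

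TCF7L2, the main transcriptional partner of beta-catenin in the intestine, carried the chain with both the most peaks and the longest span. It had 68 RNAPII peaks over 257 kb (chr10:114681314-114938183), 93.1% of it inside peaks, with 21981 tags. Enrichment ran from 4.77-fold to 79.6-fold with a median of 11.2-fold, and 47 of the peaks were kept. The strongest RNAPII summit was 11.7% and the strongest H3K4me3 summit (166-fold) 12.1% of the way along, so the chain extended to both sides of the mark. A RNAPII peak of 38.8-fold coincided with weak H3K4me3 (5.5-fold) and TAF3 (7.11-fold) past the middle of the chain.

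FAT1, an atypical cadherin gene on the minus strand, had 51 peaks over 163 kb (chr4:187487752-187650532), with 151-fold enrichment 98.3% of the way along, the 5′ side, where H3K4me3 was 148-fold. The other peaks brought its median down to 18.99-fold. HMGA2, an architectural chromatin protein gene on the plus strand, had 32 peaks over 153 kb (chr12:66211507-66364098), 94.9% inside peaks. Its H3K4me3 peak (215-fold) overlapped a pair of RNAPII peaks of 157-fold and 166-fold, the former with 414 tags per kb and the latter 19285 bp wide with 160. The 166-fold summit was 12.3% and the H3K4me3 summit 5.35% of the way along, so that RNAPII summit lay beyond the H3K4me3 peak. Further along, the HMGA2 peaks past that pair lay between 7.86-fold and 33.5-fold, and the last peak of the chain, at 32.4-fold and 203 tags per kb, was denser than any other of them.

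HNRNPC, an RNA-binding protein gene on the minus strand, had 53 peaks in 78.5 kb (chr14:21659914-21738433), with 134-fold enrichment 98.9% of the way along and H3K4me3 of 211-fold at 98.5%. The chain over ANKRD11, a chromatin regulator gene on the minus strand, was lower in fold. By median density it was not, with 56.2 tags per kb over its peaks, compared with 44.4 over those of HNRNPC. Its densest peak, at 94.1, was below the 308 of HNRNPC. The 56 ANKRD11 peaks over 121 kb (chr16:89372385-89493786) ranged only from 3.97-fold to 12.9-fold, 13 were kept, none overlapped TAF3 and the highest H3K4me3 was 10.1-fold. Whether this chain reached the ANKRD11 start site was not determined, so the promoter of that gene cannot be judged from it. A run of 53 peaks with no gene named here, at chr2:220548456-220669305, had its strongest peak of 122-fold 3.96% of the way along, with H3K4me3 of 99.4-fold at 4.68%.

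Some of the named chains lay over microRNA hosts whose products are printed above. How often such hosts lie under chains in the whole list was not counted. The chain over MIR221 and MIR222 had 53 peaks in 84.5 kb (chrX:45600014-45684493), and its strongest peak, 96.2-fold, was 36.2% of the way along, beside H3K4me3 of 46.4-fold at 35.6%. Most peaks on the low-coordinate side of it were kept and most on the other side were left out. MIR100HG had 32 peaks over 121 kb (chr11:121954144-122075469), 27 of them kept, with the strongest (175-fold) 60.9% of the way along and 6 TAF3 peaks. The chain over MIR29A, the seventh in span and outside the rule for named chains, had 26 peaks over 119 kb (chr7:130528926-130647607) with 259-fold enrichment at 98.6% and 9 TAF3 peaks. That strongest peak (chr7:130637858-130646881) is not the domain over MIR29A given above. Whether it belongs to the microRNA host was not determined.

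KITLG, which encodes the KIT ligand stem cell factor, also lies outside that rule, as the ninth in span, and was taken for its simple shape. Its 13 peaks filled 96.3% of 96.5 kb (chr12:88879339-88975822) on a minus-strand gene. The 5′ peak reached 156-fold and 270 tags per kb, with H3K4me3 at 206-fold and TAF3 at 93.8-fold. In the other kept peaks the density lay between 84.6 and 139 tags per kb, and the highest of these, with 98.7-fold, was the last kept peak at the 3′ side. DCBLD2, a transmembrane receptor gene on the minus strand and eighth in span, had its highest fold, 177-fold, 96.3% of the way along, the 5′ side, in a peak of 194 tags per kb. Its densest peak lay elsewhere, 20253 to 28764 bp from the low-coordinate end of the chain, with 489 tags per kb and 103-fold, and overlapped neither H3K4me3 nor TAF3.

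**Figure D4:**
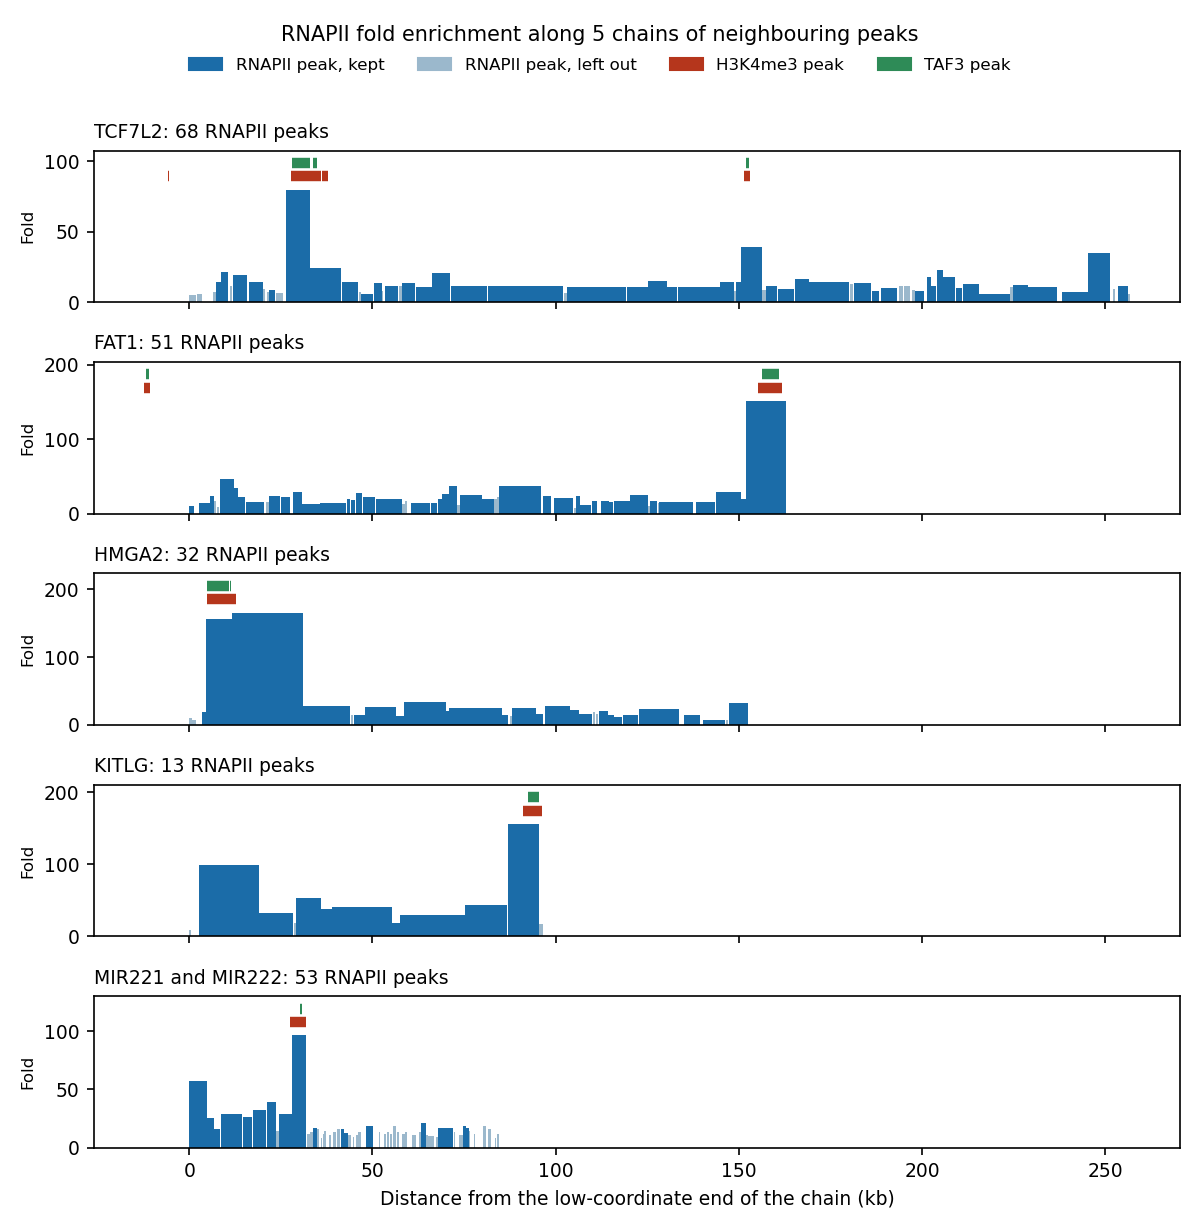
RNAPII fold enrichment (y axis) along 5 chains of neighbouring peaks (x axis, kb from the low-coordinate end of the chain). Each bar is 1 peak as wide as called, dark where kept in the filtered list and pale where left out, and the red and green segments show H3K4me3 and TAF3 peaks without height. FAT1 and KITLG are highest at the right end (151-fold and 156-fold), HMGA2 near the left end (166-fold), TCF7L2 at 11.7% and MIR221 and MIR222 at 36.2% of the span.

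RNAPII peaks were unevenly spread over chromosomes. Density was taken per Mb between the outermost peaks of any list on the chromosome. Chromosome 19, the most gene-dense human chromosome, had 80.2 peaks per Mb, with 11.4% of its span inside RNAPII peaks and 70.01% of its peaks in chains. Chromosomes 22 and 17 followed with 51.7 and 51.5 per Mb, and 16 with 33.6. The lowest were X with 8.70, 18 with 9.89 and 13 with 10.6, beside 20.8 over the whole genome, and Y had 3 peaks.

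Chromosomes with many H3K4me3 peaks had many RNAPII peaks. The rank correlation of both densities over the 23 chromosomes other than Y was 0.97, a description of libraries that share an input. Leaving out Y, the highest density was 9.22 times the lowest for RNAPII and 6.53 times for H3K4me3. The number of RNAPII peaks per H3K4me3 peak ran from 2.45 on X to 3.98 on 22. Gene number and DNA copy number, which can differ between chromosomes of a tumour line, were not analysed here.

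Wide domains did not simply follow peak number. Chromosome 17 held 44 domains over 10 kb, 16 held 32, 12 held 27 and 19 held 26. As a share of a chromosome's RNAPII peaks they made up 1.06% on 16, 1.05% on 17, 0.938% on 22, 0.886% on 20 and 0.784% on 12, beside 0.514% in the whole list. Chromosome 19, first in peak density, was near that level at 0.551%. Per Mb the highest value was 0.543 on 17. X had 1 such domain among 1324 peaks. Its peaks had the highest median enrichment among chromosomes other than Y (16.03-fold), the largest share with H3K4me3 (41.5%) and the smallest median width (720 bp).

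**Figure D5:**
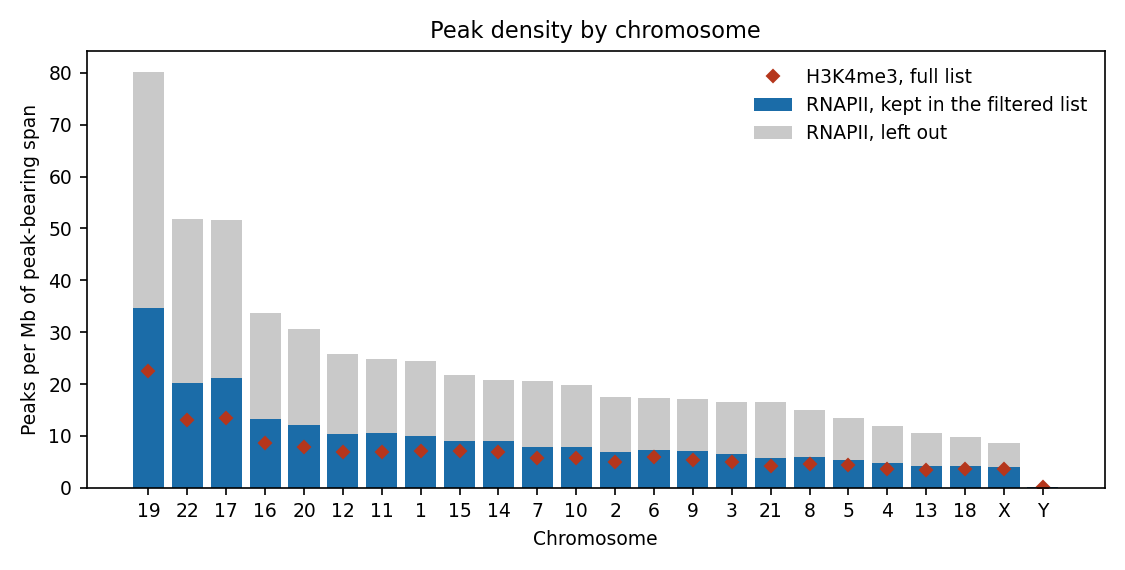
RNAPII peaks per Mb of peak-bearing span (y axis) for each chromosome (x axis, ordered by density), kept peaks in blue below left-out peaks in grey, with H3K4me3 peaks per Mb as red diamonds. Chromosome 19 stands highest at 80.2 and X lowest but for Y at 8.70, and the diamonds fall in nearly the same order.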

How the data were processed

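RNAPII occupancy was measured by ChIP-seq in HCT116 cells, 1 library per antibody and 1 input, grouped by sample title. Per the labels' protocols, reads were 36 bp long and came from gel-selected fragments near 200 bp after 15 PCR cycles. Per the submitters' processing notes, CASAVA 1.8.2, MACS 1.4.2 and hg19 were used. The aligner is not given in the sources used here.

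The authors ran MACS on every antibody library against 1 common input, per the file headers. Its settings were band width 300 bp, p cutoff 1e-05, effective genome 2.7 Gb and local windows of 1000 and 10000 bp, and no position counted more than 1 tag. RNAPII had 20074412 tags before and 16841238 after duplicate removal, and the input 19690799 and 19185386. Tag counts per peak were deposited as whole numbers without scaling to depth. Fold enrichment was deposited as a ratio of summit tags to local background, the score as minus 10 times the log10 of the MACS p-value, and the false discovery rate in percent. Length and summit offset were deposited in bp. The lowest score is 50.0, and it reads 3100 where p could not be written. In all 61456 peaks, presence in the filtered list equalled a fold above 5 with a rate below 5%.

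From these, width, tags per kb, relative summit position, gaps, chains (gaps of at most 3 kb) and overlaps of at least 1 bp with the full H3K4me3 and TAF3 lists were computed. A width class includes its upper limit. Chromosome spans run from the outermost peaks of any list, as no hg19 lengths were used. Named peaks are the 10 widest and the 5 most extreme by density, fold under 500 bp, chain size, chain span, summit position, width without H3K4me3 and fold among left-out peaks. The peaks, lists and rules were chosen with earlier results of these data known. Peaks are not replicates, so no p-value is given. The scripts used pandas 2.3.3, numpy 2.4.6, scipy 1.17.1 and matplotlib 3.10.9 under Python 3.11.15, and 7 of 7 checks on simulated data passed. Alternatives were the filtered lists, other gaps, width limits and zones, joined peaks, the summit in place of overlap, and no sex chromosomes.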

Additional observations from a re-analysis of the deposited data

How the results depend on the processing

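No paired analysis was possible because each antibody has 1 library, and leaving out a replicate was not possible either. Of 38 alternative values, 12 counted as unchanged, 25 as moved and 1 as reversed. A count of peaks or chains was unchanged within 1.5 times, a share, difference or median width within its 95% interval, and a ratio, which has no interval, only when equal to 3 digits. With the filtered RNAPII list, the number of peaks was 25013, the median width 1623 bp, the share over 10 kb 1.26%, the density ratio of domains over 10 kb to peaks of 1 to 2 kb 1.17, the number of chains 1375 with 22.7% of peaks, and the ratio between chromosomes 8.71. The difference between those width classes was then 0.789 points for H3K4me3 and reversed to -1.94 points for TAF3. Joining peaks within 1 kb gave a median width of 1162 bp and 3.69% over 10 kb. The density ratio was 4.25 by fold enrichment and 1.88 for domains over 5 kb. Summits in the outer 10% at an end made up 14.2%, below the 20% of even placement, and for domains over 5 kb 34.1% lay in the outer 20%. With TAF3 in place of H3K4me3 the summit shared the side of the mark in 96.4%. Gaps of 1, 5 and 10 kb put 36.6%, 61.6% and 70.4% of peaks in chains and gave 27.6%, 38.6% and 43.1% of chains with H3K4me3 at one end only, and the filtered H3K4me3 list gave 32.6%. The ratio between chromosomes was 12.9 by covered bases and 8.12 without X and Y. The filtered TAF3 list gave a difference of 24.1 points. The lowest count called was 10 tags and the lowest kept 26, and no other depth was tried.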
